A study of Mus musculus with 12 samples.

Results

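The genes described here are 10 glucocorticoid-responsive genes, Plin4, Agxt2l1, Fkbp5, Sgk1, Tsc22d3, Zbtb16, Cdkn1a, Pdk4, Mt1 and Mt2, out of 52169 gene symbols listed in the count table. They hold 77 of its 189660 transcript rows, and all 10 passed the filter on low counts in every comparison. They were chosen by their levels after chronic against acute L-DOPA in these same libraries, so that comparison is given for them as a description, without p-values. Counts of genes called in it stand only beside the share of all genes, and nothing is read from them. The question put to them was whether the shift between chronic and acute L-DOPA on both sides of the brain looks like a difference in stress hormone.

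RNA was sequenced from the striatum of C57BL/6J mice, female by the methods of the study. Every mouse carried a lesion of the right medial forebrain bundle, made with 1 µl of the neurotoxin 6-OHDA at 3 µg/µl after 25 mg/kg of desipramine, which spares noradrenergic fibres, and recovered for 2 weeks. All mice then received L-DOPA at 10 mg/kg with 7.5 mg/kg of benserazide, which limits its conversion outside the brain, and were killed 1 h after the last injection. The 4 groups of 3 libraries are the unlesioned (left) and lesioned (right) striatum after a single injection (acute) and after daily injections for 9 days (chronic). No saline-injected group, no unoperated group and no hormone measurement were analysed here, so every value below compares L-DOPA-treated mice with each other, and an injection given for the first time cannot be told apart from a first dose of L-DOPA. The labels count 12 mice, whereas the text of the study treats the unlesioned side as the control of the same mouse; same-numbered libraries of the 2 sides vary together.

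Glucocorticoids, corticosterone in the mouse, enter the cell and bind the glucocorticoid receptor, which a chaperone complex around HSP90 holds ready in the cytoplasm. The bound receptor moves to the nucleus and activates genes, often from an inverted repeat of 6 bases with 3 bases between, the glucocorticoid response element. In the brain the hormone rises with stress and with the active phase of the day, and astrocytes, oligodendrocytes, vessels and neurons all respond. The genes fall into several roles. Fkbp5 encodes a co-chaperone that lowers the affinity of the receptor for hormone, and Tsc22d3 (GILZ) and Zbtb16 (PLZF) encode transcriptional regulators. Sgk1 encodes a kinase that acts on ion channels and transporters, and Cdkn1a encodes the cyclin-dependent kinase inhibitor p21, which is also a target of p53. Plin4 coats lipid droplets, Pdk4 inhibits pyruvate dehydrogenase and shifts cells toward fat oxidation, and Agxt2l1 degrades phosphoethanolamine. Mt1 and Mt2 are metallothioneins, small proteins that bind zinc and copper and are induced by metals as well as by glucocorticoids.

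To show what the genes share in sequence, the mm9 genome was searched within 5000 bases on each side of the start of each gene's most counted transcript. The motif was GNACANNNTGTNC, the core of the glucocorticoid response element, which reads the same on both strands. It was present for 6 of the 10 genes, against 15.9% of all 20653 genes searched. The matches are printed on the strand of the gene, in lower case with the core in capitals.
Sgk1: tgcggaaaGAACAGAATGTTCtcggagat
Plin4, nearest: ggtacgaaGGACACGGTGTCCacagggct
Plin4, upstream: agagtccaGCACAGAATGTCCtctcgcag
Plin4, downstream: gtggctcaGGACAGGCTGTGCaccctcgc
Fkbp5: ggggctcgGGACAGGGTGTACagcgcttg
Cdkn1a: tttggcggGCACAGTATGTTCccagggaa
Mt1, nearest: cactatagGGACATGATGTTCcacacgtc
Mt2, nearest: agctgcgaGGACAGCCTGTCCtgttacaa
Mt1 and Mt2, shared: actaaatgGCACAATGTGTCCagcctaga

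The Sgk1 match at chr10:21713500-21713528 (plus strand) lay 958 bases before the start, in an annotated intron of longer Sgk1 transcripts, and extended to all fixed letters of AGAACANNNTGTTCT, a longer form found near 0.111% of genes. The Plin4 matches were at chr17:56245149-56245177 (110 bases before the start, intronic in a longer annotated transcript), chr17:56248267-56248295 (3228 bases before, intronic) and chr17:56241713-56241741 (3326 bases after, in a coding exon), all on the minus strand. Only 0.107% of genes held 3 or more. The Fkbp5 match lay at chr17:28621890-28621918 (minus strand), 1153 bases after the start in an intron, and that of Cdkn1a at chr17:29231637-29231665 (plus strand), 934 bases after the start in an intron. The nearest match of Mt1 was at chr8:96702887-96702915, 240 bases before the start, and that of Mt2 at chr8:96695428-96695456, 1076 bases before. The neighbours share the match between them at chr8:96698584-96698612. These 3 lie outside annotated genes, and all are on the plus strand. Agxt2l1, Tsc22d3, Zbtb16 and Pdk4 had no match to these letters in this window.

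The metallothionein genes were also searched for the core of the metal response element, TGCGCNC or TGCACNC on either strand, within 500 bases of the start. Mt1 held 5 matches, as many as or more than which were found near 3.54% of genes, and Mt2 held 7 (0.6% of genes had as many). At least 1 match was present near 66% of genes. The pair printed here, with the core in capitals, shares 6 bases of flank.
Mt1: acccttTGCGCCCggactc
Mt2: acccttTGCGCTCagctcc
The Mt1 match was at chr8:96703081-96703099, in an annotated non-coding exon, and the Mt2 match at chr8:96696384-96696402, 125 bases before the start. Both are on the plus strand.

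Totals ran from 87695043 to 173116525 counts per library, where a read counts on every listed transcript it overlaps. Levels are CPM, the counts of the gene's most counted transcript relative to a library size adjusted by the TMM method. The least counted of the 10 genes, Plin4, had 112 to 782 counts per library. The 12 libraries can be told apart by more than their groups. The unlesioned chronic library 2 held the choroid plexus marker Ttr at 451 CPM, against at most 1.5 CPM in the other 11 libraries. For 2 more markers of that list, Kl and Clic6, every chronic library on either side lay above every acute one (Kl at most 0.632 CPM acute and at least 1.04 CPM chronic, Clic6 at most 4.51 and at least 5.78 CPM). The acute libraries numbered 2 held Lcn2, an acute-phase gene that glucocorticoids also induce, at 6.69 CPM on the unlesioned and 8.28 CPM on the lesioned side, against at most 0.0836 CPM elsewhere. Cortical marker transcripts also varied, with Slc17a7 between 1.24 and 32.7 CPM. Of the 8 spiny neuron markers, Ppp1r1b and Penk had at least 364 and 337 CPM in all libraries, but the list was not stable between the sides. Drd1a, the D1 dopamine receptor, went from a mean of 66.7 to 13.5 CPM on the lesioned side after acute and from 70.1 to 28 CPM after chronic L-DOPA, and Penk from 353 to 673 CPM after acute L-DOPA. Bulk RNA cannot tell fewer cells of a type from less RNA per cell.

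After chronic L-DOPA the 10 genes did not move as a block. Plin4, Agxt2l1, Fkbp5 and Cdkn1a had higher fitted levels on both sides, Sgk1, Tsc22d3 and Mt2 had lower fitted levels on both, and Zbtb16, Pdk4 and Mt1 differed in sign between the sides. Their median log2 difference was -0.27 in the lesioned striatum and 0.25 in the unlesioned striatum, where all genes had medians of -0.02 and -0.00. In the lesioned striatum 3 of the 10 were called higher and 5 lower (12.5% and 13.1% of all genes tested, called at an adjusted p under 0.05), and the libraries did not overlap for 3 higher and 4 lower genes (20.2% and 21.7% of all genes). In the unlesioned striatum 2 were called higher and 0 lower (1.07% and 1.99% of all genes), and the libraries did not overlap for 3 higher and 1 lower gene (12.0% and 14.6%). These counts follow from how the genes were picked and are given only beside the background.

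Plin4 had 1.09, 1.37 and 0.838 CPM in the acute unlesioned libraries 1 to 3 and 7.15, 1.83 and 2.95 CPM in the chronic unlesioned ones. On the lesioned side it had 1.35, 1.73 and 1.13 CPM after acute and 5.73, 1.88 and 2.96 CPM after chronic L-DOPA. Every chronic library lay above every acute one of its side, and library 1 was far above the others on both sides. The fitted log2 difference was 1.85 ± 0.41 (SE, n = 3 per group) in the unlesioned and 1.32 ± 0.33 in the lesioned striatum. Leaving out any one library moved it between 1.13 and 2.18 and between 0.80 and 1.63, and both lowest values were those without the chronic library numbered 1. Without the chronic unlesioned library 2, which held choroid plexus transcripts, the unlesioned values were 2.18 for Plin4, 1.56 for Agxt2l1, 0.67 for Fkbp5 and -0.70 for Tsc22d3, each farther from 0 than with it.

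Fkbp5, the receptor's co-chaperone, had 11.9, 15.7 and 14 CPM after acute and 23.8, 16.5 and 20.5 CPM after chronic L-DOPA in the unlesioned striatum. On the lesioned side the values were 11, 15.3 and 11.9 CPM, then 26.9, 16.3 and 22.9 CPM. The groups did not overlap on either side, although chronic library 2 exceeded the highest acute library by little. The log2 differences were 0.55 ± 0.13 and 0.79 ± 0.17 (SE).

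Agxt2l1 had 3.56, 3.49 and 3.17 CPM in acute and 12.5, 6.91 and 7.71 CPM in chronic unlesioned libraries, with a log2 difference of 1.40 ± 0.19 (SE) and no overlap. On the lesioned side it had 5.72, 4.16 and 4.76 CPM, then 9.07, 5.34 and 4.36 CPM, so the groups overlapped and the log2 difference was 0.34 ± 0.22. Without a single library this lesioned value ranged from -0.01 to 0.55.

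**Figure D1:**
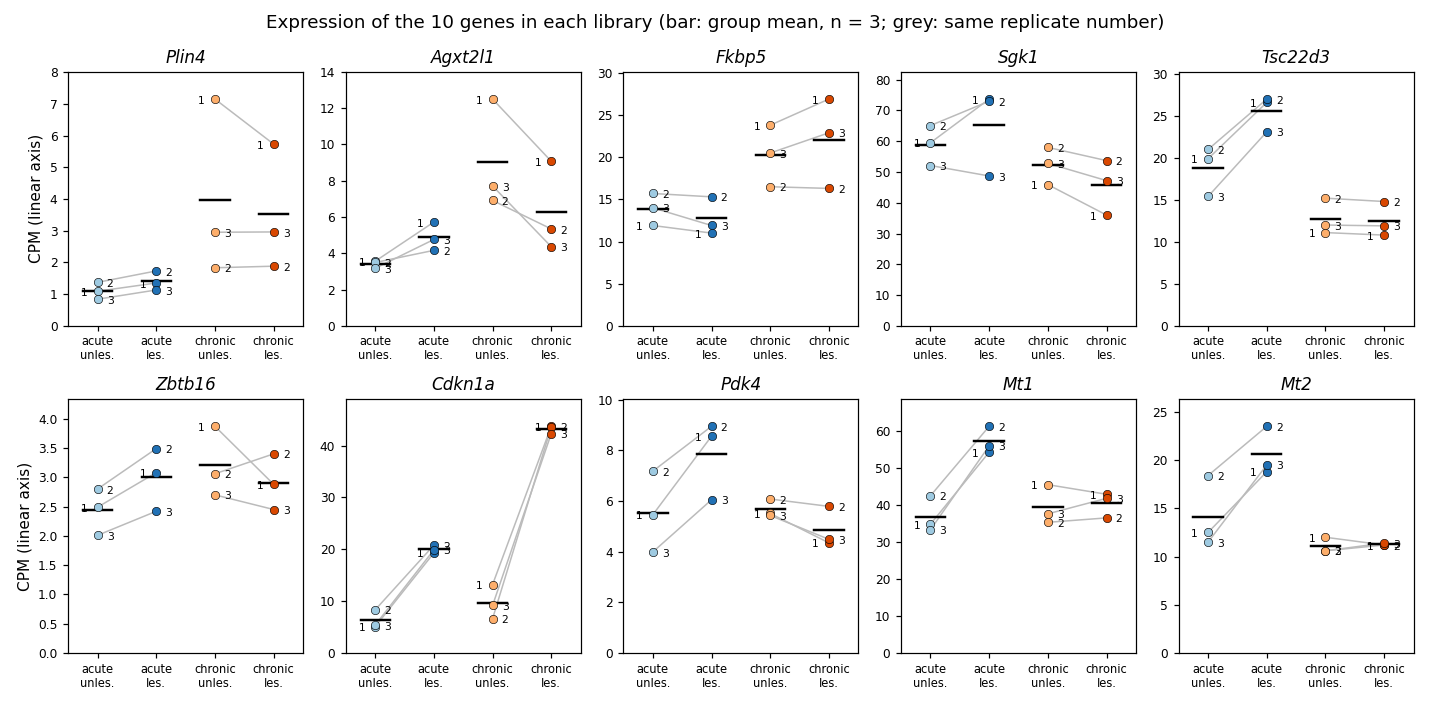
Level of each of the 10 genes in every library, in CPM on a linear axis from 0, by group (unles., unlesioned; les., lesioned); numbers are replicate numbers, black bars group means of 3 libraries, and grey lines join libraries of the same number. Plin4, Agxt2l1 and Fkbp5 are highest in chronic library 1 on both sides, Tsc22d3 is lower in all chronic libraries, and Cdkn1a is at 42.3 to 43.7 CPM in the chronic lesioned striatum.

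Tsc22d3, one of the most widely used readouts of glucocorticoid action, went the other way. It had 19.9, 21 and 15.4 CPM after acute and 11.1, 15.2 and 12 CPM after chronic L-DOPA in the unlesioned striatum, and 26.6, 27 and 23.1, then 10.8, 14.8 and 11.9 CPM in the lesioned striatum. All chronic libraries lay below all acute ones on each side, with 15.2 against 15.4 CPM at the nearest on the unlesioned side. The log2 differences were -0.55 ± 0.13 and -1.03 ± 0.11 (SE).

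Sgk1 overlapped between the groups on both sides. Its levels were 59.5, 65.1 and 52.1 CPM (acute) and 45.9, 58 and 52.8 CPM (chronic) on the unlesioned side, and 73.7, 73 and 48.7, then 36, 53.7 and 47.2 CPM on the lesioned side. The log2 differences were -0.17 ± 0.10 and -0.51 ± 0.17 (SE).

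The metallothioneins and Pdk4 were lower after chronic L-DOPA mainly against the acute lesioned striatum. Mt2 had 18.8, 23.5 and 19.5 CPM there and 11.2, 11.2 and 11.4 CPM in the chronic lesioned libraries (log2 difference -0.87 ± 0.09), and 12.5, 18.4 and 11.5, then 12, 10.6 and 10.6 CPM in the unlesioned striatum (-0.35 ± 0.15, overlapping). Mt1 had 54.4, 61.4 and 56.1 CPM, then 43, 36.6 and 41.9 CPM in the lesioned striatum (-0.50 ± 0.08, no overlap), and 34.9, 42.6 and 33.4, then 45.6, 35.4 and 37.7 CPM in the unlesioned striatum (0.10 ± 0.11). Pdk4 had 8.56, 8.95 and 6.05 CPM, then 4.35, 5.79 and 4.49 CPM in the lesioned striatum (-0.68 ± 0.15, no overlap), and 5.46, 7.18 and 3.99, then 5.51, 6.08 and 5.43 CPM in the unlesioned striatum (0.04 ± 0.16). The unlesioned groups of Mt1 and Pdk4 overlapped throughout.

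Cdkn1a and Zbtb16 completed the set. Cdkn1a had 19.3, 20.8 and 19.9 CPM in the acute and 43.7, 43.6 and 42.3 CPM in the chronic lesioned striatum, a log2 difference of 1.11 ± 0.07 (SE). In the unlesioned striatum it had 5.11, 8.33 and 5.4, then 13.2, 6.63 and 9.18 CPM (0.63 ± 0.23), and the groups overlapped. Zbtb16 was low and overlapped everywhere, with 2.49, 2.8 and 2.01, then 3.87, 3.06 and 2.7 CPM in the unlesioned striatum (0.40 ± 0.15) and 3.08, 3.49 and 2.42, then 2.88, 3.4 and 2.45 CPM in the lesioned striatum (-0.04 ± 0.15).

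**Figure D2:**
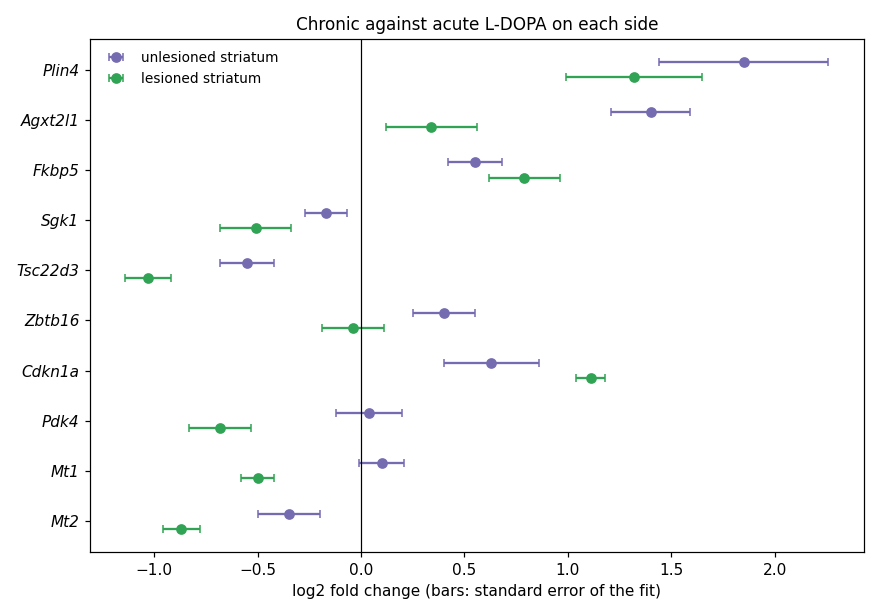
Fitted log2 fold change of each gene between chronic and acute L-DOPA in the unlesioned (purple) and the lesioned striatum (green); bars are standard errors, from 3 libraries per group. Plin4 has the highest value on both sides (1.85 and 1.32), and Tsc22d3 the lowest (-0.55 and -1.03).

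Per kilobase of transcript, Mt1 was the most abundant of the 10 genes in the acute unlesioned striatum (34 ± 4.54 CPM per kb, SD, n = 3), followed by Mt2 (25.4 ± 6.7) and Sgk1 (24 ± 2.64), which lay within each other's spread. Tsc22d3 stood at 9.5 ± 1.51, Fkbp5 at 3.96 ± 0.544 and Cdkn1a at 3.29 ± 0.932 CPM per kb. Pdk4 (1.59 ± 0.458) and Agxt2l1 (1.27 ± 0.0786) were close to each other, above Zbtb16 (0.476 ± 0.0781) and Plin4 (0.26 ± 0.0629). In the chronic lesioned striatum Cdkn1a reached 22.6 ± 0.418 CPM per kb, and exceeded Mt2 (20.2 ± 0.174) and Sgk1 (18.6 ± 3.65).

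Libraries of the same number on the 2 sides rose and fell together. After acute L-DOPA the same number was highest on both sides for 9 of the 10 genes, in all but Agxt2l1 number 2, and after chronic L-DOPA for 8 of 10, with number 1 highest for Plin4, Agxt2l1, Fkbp5, Cdkn1a and Mt1 and number 2 for Sgk1, Tsc22d3 and Pdk4. Among all 12794 genes at 1 CPM or more this held for 48.4% and 47.8%, and among 26 other glucocorticoid-induced genes for 20 and 16. Across the 10 genes and 3 numbers, the deviation of a lesioned library from its group mean followed that of the unlesioned library of the same number, with Pearson's r of 0.78 (acute) and 0.84 (chronic) over 30 points each, which share libraries. For Plin4 the highest chronic library exceeded the lowest 3.90-fold on the unlesioned and 3.05-fold on the lesioned side, against 1.63-fold and 1.53-fold after acute L-DOPA. Its mean level on the 2 sides after chronic L-DOPA was 3.98 ± 2.8 and 3.52 ± 1.99 CPM (SD, n = 3). The chronic lesioned libraries of Cdkn1a hardly differed (43.7, 43.6 and 42.3 CPM), unlike its unlesioned ones (13.2, 6.63 and 9.18 CPM).

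**Figure D3:**
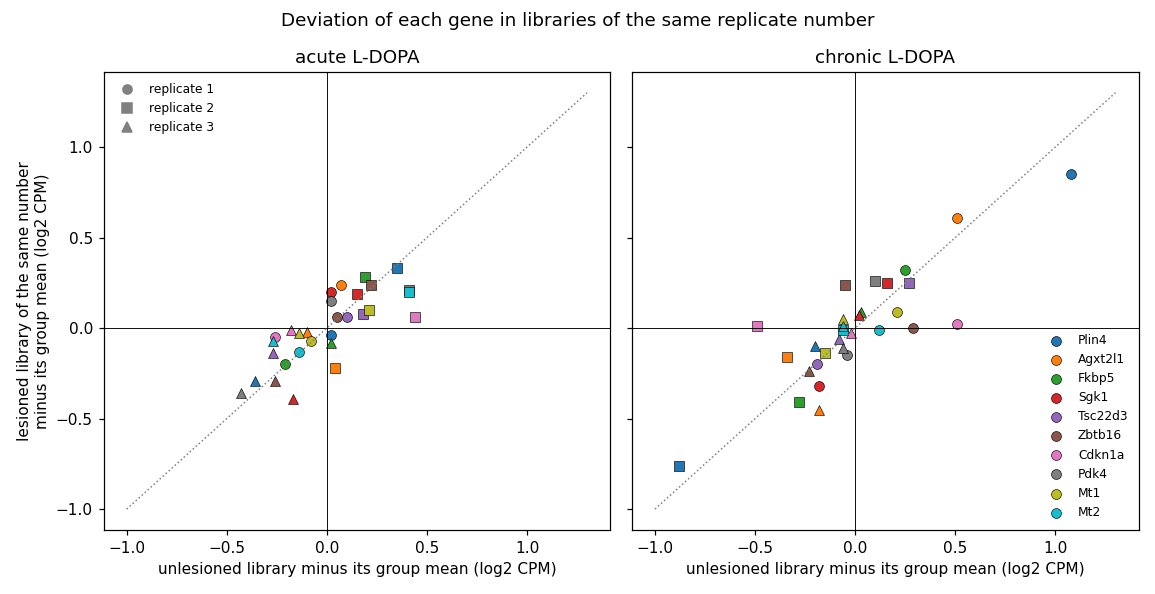
Deviation of each gene's log2 CPM from its group mean in the unlesioned library (x) and in the lesioned library of the same number (y), after acute (left) and chronic L-DOPA (right); colours are genes, symbols replicate numbers, and the dotted line marks equal deviations. The deviations of the 2 sides rise together (r = 0.78 and 0.84), with Plin4 at the extremes after chronic L-DOPA. Cdkn1a lies off the line, with chronic deviations of 0.51, -0.49 and -0.02 on the unlesioned and 0.02, 0.01 and -0.03 on the lesioned side.

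Over the 12 libraries some of the genes rose and fell together and others ran against each other. Plin4 and Fkbp5 had a Pearson's r of 0.90 on log2 CPM, Plin4 and Agxt2l1 0.86, and Agxt2l1 and Fkbp5 0.63. Tsc22d3 and Mt2 reached 0.87, Mt1 and Mt2 0.84, Sgk1 and Pdk4 0.82, and Sgk1 and Tsc22d3 0.81. Fkbp5 and Tsc22d3 had an r of -0.86, and Plin4 and Tsc22d3 -0.73. The genes did not fall into clean sets, since Mt1 had an r of 0.07 with Plin4, 0.08 with Agxt2l1 and -0.17 with Fkbp5, Agxt2l1 and Pdk4 had -0.10, and Zbtb16 had 0.60 with Agxt2l1 and 0.54 with Pdk4. These values include the differences between groups and the likeness of same-numbered libraries, and are descriptions. The gene whose level was most like the mean of the 10 standardised profiles was Pnpla2 (r = 0.91), the triglyceride lipase, followed by Sfrp1 (0.82), Tdp2 (0.81), Lima1 (0.79), Ezr (0.78), Mcm6 (0.78), Ezh2, Taf4b, Phyhd1 and Ddx21 (0.77 each). Mcm6, Ezh2 and Taf4b were measured near 1 CPM. The mean profile itself was closest to Mt1 (0.83) and Zbtb16 (0.80), and had little in common with Fkbp5 (0.09).

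The lesion effect, lesioned against unlesioned striatum, was not the comparison that chose the genes, and its tests are given. It rests on the same 12 libraries as that comparison, and the genes were picked with earlier results of these data known. Its calls are therefore not independent of the choice. After acute L-DOPA 5 of the 10 genes were higher in the lesioned striatum and 0 were lower, where 8.16% of all genes tested were called higher and 7.16% lower. Their median log2 fold change was 0.48, against 0.02 for all genes, and 9 of the 10 values were positive. At an unadjusted p under 0.05, 6 genes were higher and 0 lower, and DESeq2 called 4 and 0. Cdkn1a rose most, with a log2 fold change of 1.69 ± 0.14 (SE, adjusted p = 1.11e-05 by edgeR's quasi-likelihood test), and its 3 lesioned libraries lay above 19 CPM while no unlesioned one exceeded 8.33 CPM. Mt1 rose by 0.64 ± 0.09 (adjusted p = 0.00059), Agxt2l1 by 0.53 ± 0.11 (0.00772), Tsc22d3 by 0.46 ± 0.10 (0.0138) and Mt2 by 0.55 ± 0.15 (0.0286), each with no overlap of its libraries. With the replicate number as a block 8 genes were higher, the additional ones being Pdk4 (log2 fold change 0.51 ± 0.18, adjusted p = 0.0863 without and 0.000146 with the block), Zbtb16 (0.30 ± 0.14, 0.185 and 0.0112) and Plin4 (0.35 ± 0.18, 0.235 and 0.0254). Sgk1 had a value of 0.15 ± 0.13 (adjusted p = 0.489), and Fkbp5 of -0.12 ± 0.12 (0.549). The number of genes called fell to 3 without the acute lesioned library 2. The block raised the calls over all transcripts as well, from 16684 to 28237 of 129674.

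Some cell type markers were also called in the acute lesion effect, where 8.16% of all genes were higher and 7.16% lower. Of 6 astrocyte markers 2 were called higher and 0 lower, namely Gfap, the intermediate filament of reactive astrocytes (1.25 ± 0.15, adjusted p = 0.000302, edgeR), which went from a mean of 16.4 to 38.5 CPM, and the connexin Gja1 (0.40 ± 0.06, 0.00122). Of 6 microglial markers 2 were higher (C1qa and Tmem119), of 5 mural cell markers 1 (Acta2) and of 6 oligodendrocyte markers 1 (Mag, 3 by DESeq2), with 0 lower in each list. With the replicate block the calls were 4 of 6 astrocyte, 4 of 6 microglial, 5 of 6 oligodendrocyte and 2 of 5 mural cell markers, all higher, and at an unadjusted p under 0.05 they were 4, 4, 4 and 3. The summed oligodendrocyte levels overlapped, at 2090 to 2330 CPM on the unlesioned and 2110 to 3490 CPM on the lesioned side. Of 8 spiny neuron markers 4 were higher and 3 lower. Of 6 cortical glutamatergic markers 1 (Cux2) was higher and 1 (Neurod6) lower, with 5 lower at an unadjusted p under 0.05 and with the replicate block, and their summed level went from a mean of 20.3 CPM on the unlesioned to 9.11 CPM on the lesioned side. The part of these cells in the acute lesion effect of the 10 genes was not tested.

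After chronic L-DOPA Cdkn1a was the only one of the 10 genes called in the lesioned striatum (1 higher, 0 lower, with 8.45% and 5.2% of all genes called). The counts were also 1 and 0 at an unadjusted p under 0.05, by DESeq2 and without the chronic unlesioned library 2. It rose by 2.16 ± 0.20 on the log2 scale (adjusted p = 5.47e-05, edgeR), from 6.63 to 13.2 CPM in the unlesioned to 42.3 to 43.7 CPM in the lesioned libraries. The median of the 10 genes was -0.08, against -0.01 for all genes. Tsc22d3 (-0.02 ± 0.14, adjusted p = 0.938), Mt1 (0.03 ± 0.11, 0.883) and Mt2 (0.03 ± 0.08, 0.872) had lesion effects near 0 here. Agxt2l1 had a value of -0.53 ± 0.27 (adjusted p = 0.25) and Sgk1 of -0.19 ± 0.14 (0.439); with the replicate block both were lower in the lesioned striatum (0.00127 and 0.0465), in a fit whose calls over all transcripts went from 15295 to 27505 of 127063. Fkbp5 (0.12 ± 0.17, adjusted p = 0.728) and Plin4 (-0.18 ± 0.47, 0.854) were not called in either fit.

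**Figure D4:**
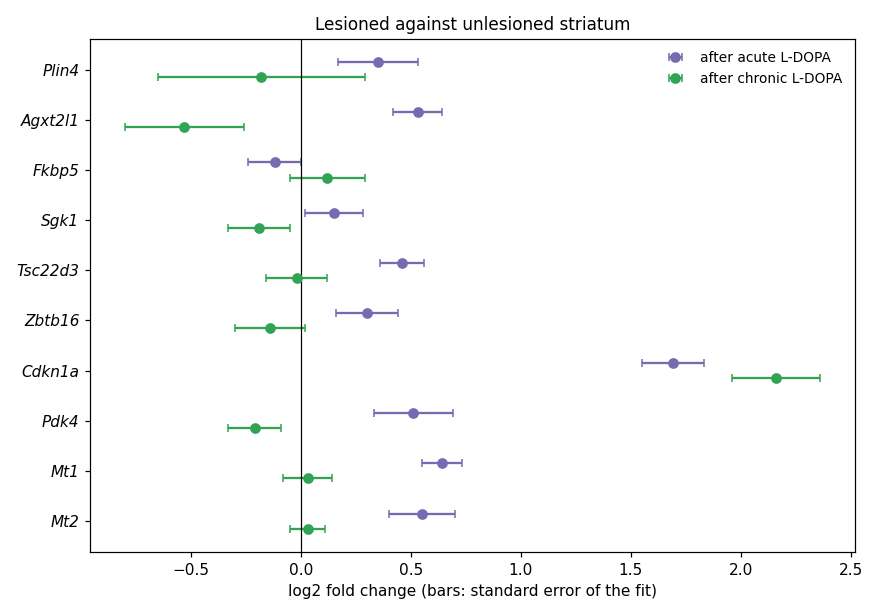
Fitted log2 fold change of each gene between the lesioned and the unlesioned striatum after acute (purple) and chronic L-DOPA (green); bars are standard errors, from 3 libraries per group. Cdkn1a is highest under both treatments (1.69 and 2.16), while Tsc22d3, Mt1 and Mt2 lie between 0.46 and 0.64 after acute and within 0.03 of 0 after chronic L-DOPA.

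The difference of the lesion effects equals the difference of the chronic-against-acute changes that chose the genes, so it is described without a test. It was -1.06 ± 0.34 (SE, log2) for Agxt2l1, -0.72 ± 0.26 for Pdk4, -0.61 ± 0.15 for Mt1, -0.53 ± 0.63 for Plin4, -0.52 ± 0.19 for Mt2, -0.48 ± 0.20 for Tsc22d3, -0.44 ± 0.24 for Zbtb16 and -0.34 ± 0.22 for Sgk1, and it was 0.48 ± 0.28 for Cdkn1a and 0.24 ± 0.25 for Fkbp5. Of all genes, 3.53% passed the threshold as higher and 1.56% as lower, beside 0 and 1 of the 10, counts from which nothing is read.

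A separate list of 26 genes known to be induced by glucocorticoids, which does not contain the 10 genes, moved in both directions between chronic and acute L-DOPA. Like the 10 genes, this list was chosen with earlier results of these data known. In the lesioned striatum 6 of the 25 measured were higher and 8 lower by edgeR's test (median log2 fold change -0.25), where 12.5% and 13.1% of all genes were called. DESeq2 called 6 higher and 10 lower, and at an unadjusted p under 0.05 there were 6 and 14. Higher levels were found for Nedd9, a scaffold of cell adhesion signals (0.88 ± 0.13 SE, adjusted p = 0.00104), Mfsd2a, the lipid transporter of the blood-brain barrier (0.72 ± 0.13, 0.00276), and Bcl6, a transcriptional repressor (0.45 ± 0.09, 0.00584). Lower levels were found for Txnip, an inhibitor of thioredoxin and glucose uptake (-1.62 ± 0.20, 0.000371), Cebpd, a transcription factor of inflammation and fat cell formation (-1.23 ± 0.21, 0.00264), the arrestin-like Arrdc3 (-0.80 ± 0.16, 0.00567), the transcription factor Klf15 (-0.69 ± 0.11, 0.00149) and the deubiquitinase Usp2 (-0.55 ± 0.07, 0.000629). The number of genes called higher was 3 without the acute lesioned library 1 or 3 or the chronic lesioned library 3.

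In the unlesioned striatum 0 of the 25 genes were called in either direction by edgeR and by DESeq2, with 7 higher and 4 lower at an unadjusted p under 0.05. Without the filter on low counts 2 were higher and 1 lower. Without the chronic unlesioned library 2, calls over all transcripts rose from 3366 of 129187 to 14377 of 130656. In that edgeR fit 3 of the genes were higher, namely Sult1a1 (1.24 ± 0.20, adjusted p = 0.0027), Mfsd2a (0.56 ± 0.10, 0.00415) and Hif3a (1.06 ± 0.19, 0.00519), and 1 lower, Cebpd (-1.48 ± 0.39, 0.0288). With all libraries the lowest adjusted p-values were 0.061 for Sult1a1 (log2 fold change 1.01 ± 0.25), 0.0629 for Cebpd (-1.37 ± 0.35) and 0.0735 for Hif3a (0.86 ± 0.23). Sult1a1 and Hif3a, singled out after their values were seen, had the library pattern of Plin4. Hif3a had 1.69, 2.49 and 1.68, then 4.97, 2.43 and 3.18 CPM in the unlesioned striatum and 1.8, 2.65 and 1.73, then 3.93, 2.45 and 2.91 CPM in the lesioned striatum, with chronic library 1 highest on both sides. Cebpd, like Lcn2, was highest in acute library 2, with 1.47, 3.79 and 1.42, then 0.622, 0.988 and 0.931 CPM on the unlesioned side. Of the 25 genes, 6 had higher and 10 had lower fitted levels on both sides.

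**Figure D5:**
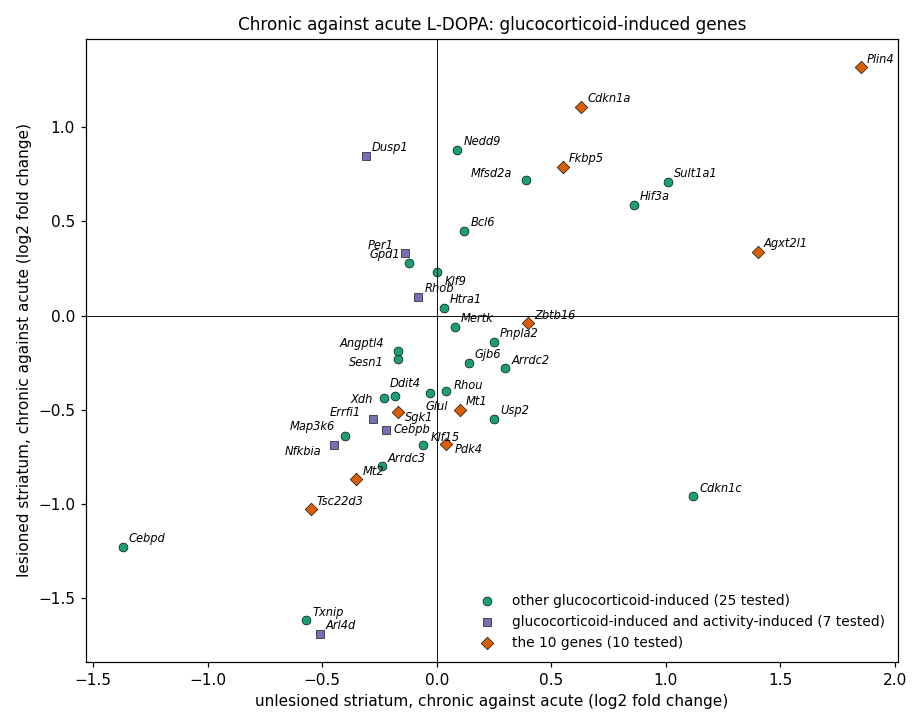
Log2 fold change between chronic and acute L-DOPA in the unlesioned (x) and lesioned striatum (y) for the 10 genes (orange diamonds), the other glucocorticoid-induced genes (green circles, 25 tested) and 7 genes induced by both glucocorticoids and neuronal activity (purple squares). Plin4, Agxt2l1, Fkbp5, Hif3a and Sult1a1 lie to the upper right, and Tsc22d3, Cebpd and Txnip to the lower left.

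The lesion effect on the list of 26 was also mixed. After acute L-DOPA 5 were higher and 1 lower, beside 8.16% and 7.16% of all genes (13 and 2 with the replicate block, which raised the calls over all transcripts too). Among them were Usp2 (0.49 ± 0.06, adjusted p = 0.0002), the astrocytic connexin Gjb6 (0.47 ± 0.07, 0.0014), the cell cycle inhibitor Cdkn1c (0.76 ± 0.16, 0.00831) and Gpd1 (-0.29 ± 0.08, 0.0267), which encodes a glycerol phosphate dehydrogenase. After chronic L-DOPA 5 of 25 were higher and 0 lower, beside 8.45% and 5.2% of all genes (10 lower with the replicate block, 1 by DESeq2 and 8 at an unadjusted p under 0.05), led by Nedd9 (1.11 ± 0.15, 0.000813), Cebpd (0.98 ± 0.22, 0.0154), Bcl6 (0.42 ± 0.09, 0.0161), Klf9 (0.49 ± 0.11, 0.0182) and Mfsd2a (0.68 ± 0.17, 0.0256). Cdkn1c reached 1.87 CPM in the chronic unlesioned library that held choroid plexus transcripts, against at most 0.867 CPM in the other libraries; the part of that tissue in its value was not tested.

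Another list held 7 genes that both glucocorticoids and neuronal activity induce. By edgeR and by DESeq2, 4 of them were higher and 0 lower on the lesioned side under each treatment (of all genes, 8.16% were higher and 7.16% lower after acute, and 8.45% and 5.2% after chronic L-DOPA), and 5 and 0 at an unadjusted p under 0.05. Dusp1, a phosphatase of MAP kinases, had 9.05 to 9.77 CPM in the acute unlesioned, 45.2 to 50.9 CPM in the acute lesioned, 6.82 to 8.39 CPM in the chronic unlesioned and 74.5 to 99.8 CPM in the chronic lesioned libraries, a lesion effect of 2.36 ± 0.07 (adjusted p = 5.55e-10) and 3.52 ± 0.13 (4.17e-08). The clock gene Per1 rose by 1.10 ± 0.07 (1.13e-06) and 1.57 ± 0.08 (4.92e-07), and the GTPase gene Arl4d by 1.70 ± 0.08 (5.48e-08) and 0.52 ± 0.12 (0.0186). Between chronic and acute L-DOPA, 2 were higher and 4 lower in the lesioned striatum, beside 12.5% and 13.1% of all genes. On the unlesioned side 1.07% of all genes were higher and 1.99% lower. Of the 7, edgeR called 1 lower there, Arl4d (-0.51 ± 0.08, 0.0161), and DESeq2 called 2. Dusp1 was lower too by edgeR (-0.40 ± 0.08, 0.00848) without the chronic library 2. In that fit calls over all transcripts rose from 3366 of 129187 to 14377 of 130656.

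The receptors and their chaperones were measured as a list of 8 genes. Nr3c1, the glucocorticoid receptor, had 17.1 to 18.9 CPM in the acute unlesioned and 13.6 to 15.4 CPM in the acute lesioned libraries, and was lower on the lesioned side after acute (-0.32 ± 0.07, adjusted p = 0.0102, edgeR) and chronic L-DOPA (-0.35 ± 0.09, 0.0265), a call that was lost without the chronic unlesioned library 2. It did not pass the test between chronic and acute L-DOPA on the lesioned (-0.06 ± 0.08, 0.642) or unlesioned side (-0.03 ± 0.07, 0.848). Nr3c2, the mineralocorticoid receptor, was higher after chronic than acute L-DOPA in the lesioned striatum (0.46 ± 0.07, 0.00162), as was Hsd11b1, which regenerates active hormone inside cells (0.82 ± 0.12, 0.0012). Hsd11b1 was also higher on the lesioned than the unlesioned side after chronic L-DOPA (1.05 ± 0.19, 0.00488), with 1.74 to 2.11 against 0.695 to 1.21 CPM. The chaperone genes were lower after chronic L-DOPA in the lesioned striatum, all 5 measured, where 13.1% of all genes were called lower, with log2 fold changes of -0.47 ± 0.11 for Fkbp4 (0.013), -0.44 ± 0.12 for Ptges3 (0.0226), -0.41 ± 0.13 for Hsp90aa1 (0.045), -0.31 ± 0.09 for Stip1 (0.0335) and -0.30 ± 0.10 for Hsp90ab1 (0.0486). On the unlesioned side 0 of the 8 were called by edgeR, 2 were lower by DESeq2, and 1 was higher and 4 lower at an unadjusted p under 0.05, with values from -0.22 to -0.41 for the 5 chaperone genes. Leaving out the chronic unlesioned library 2, Fkbp4 (-0.55 ± 0.10, 0.00407), Stip1 (-0.47 ± 0.10, 0.0121), Hsp90aa1 (-0.41 ± 0.10, 0.0189) and Hsp90ab1 (-0.28 ± 0.08, 0.0371) were lower there too. Calls over all transcripts rose in that fit as well, from 3366 of 129187 to 14377 of 130656. With all libraries, 1.07% of all genes were called higher and 1.99% lower on this side.

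Lists that share other inputs with the 10 genes were measured beside them. Of all genes, 8.16% were called higher and 7.16% lower in the acute lesion effect, and 8.45% and 5.2% in the chronic one. Between chronic and acute L-DOPA in the lesioned striatum the shares were 12.5% and 13.1%. Of 3 further genes of metal handling 1 was called higher and 0 lower on the lesioned side after the single injection of L-DOPA. It was the metallothionein gene Mt3 (0.30 ± 0.06, adjusted p = 0.01, edgeR). Among genes of fasting and PPAR signalling, which also drive Pdk4, Cpt1a (0.32 ± 0.07, 0.0102) and Acot1 (0.43 ± 0.12, 0.03) were higher on the lesioned side after acute L-DOPA, and Cpt1a (-0.29 ± 0.10, 0.0461), Acadm (-0.29 ± 0.08, 0.0269) and Acaa2 (-0.34 ± 0.09, 0.0168) were lower after chronic than acute L-DOPA in the lesioned striatum. Of 7 targets of p53, which also drives Cdkn1a, Bbc3 rose in the lesioned striatum after acute (1.52 ± 0.15, 3.49e-05) and chronic L-DOPA (0.98 ± 0.16, 0.00253) and Sesn2 after acute L-DOPA (0.72 ± 0.12, 0.00253), while Mdm2 had values of -0.03 ± 0.06 (0.784) and 0.09 ± 0.08 (0.492). Between chronic and acute L-DOPA in the lesioned striatum, where Cdkn1a had a value of 1.11, 0 of these targets were higher and 2 lower, Phlda3 (-0.83 ± 0.19, 0.0113) and Ccng1 (-0.34 ± 0.09, 0.0186). Of 8 clock genes, Dbp (-0.58 ± 0.09, 0.00112), Per3 (-0.67 ± 0.10, 0.000962) and Tef (-0.24 ± 0.07, 0.0343) were lower after chronic than acute L-DOPA in the lesioned striatum, and 1 (Arntl) and 5 of the 8 were lower on the lesioned than the unlesioned side after acute and chronic L-DOPA.

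Cell type markers moved between chronic and acute L-DOPA too. Of all genes 13.1% were called lower in the lesioned and 1.99% in the unlesioned striatum. In the lesioned striatum 6 of 6 oligodendrocyte markers were lower after chronic L-DOPA, with summed levels of 2110 to 3490 CPM after acute and 1160 to 2080 CPM after chronic L-DOPA, where DESeq2 called 2. On the unlesioned side, with 2090 to 2330 against 1550 to 2240 CPM, edgeR and DESeq2 called 0 of 6 and 2 were lower at an unadjusted p under 0.05, but 6 of 6 were lower without the chronic library 2. Leaving out that library raised the calls over all transcripts from 3366 of 129187 to 14377 of 130656. Within the chronic group the marker Mbp was highest in library 2 on both sides (1040 and 920 CPM, against 769 and 791, and 552 and 622 CPM), the libraries in which Plin4 and Fkbp5 were lowest and Tsc22d3 and Sgk1 highest. Of 6 microglial markers 4 were lower in the lesioned striatum (62.9 to 74.7 against 42.2 to 52.6 CPM) and 2 in the unlesioned striatum, and of 5 mural cell markers 4 (35.9 to 41.3 against 23.6 to 32.8 CPM) and 1. Of 6 astrocyte markers 3 and 2 were lower, and of 6 endothelial markers 1 was lower in the lesioned striatum. Some choroid plexus markers went the other way, where 12.5% of all genes were called higher in the lesioned and 1.07% in the unlesioned striatum. Kl (1.79 ± 0.34, adjusted p = 0.0041, edgeR) and Clic6 (1.06 ± 0.18, 0.00232) were higher after chronic L-DOPA in the lesioned striatum. Of the 4 tested out of 5, 0 were called lower and 1 had a lower fitted level. The summed levels were 3.68 to 5.25 CPM after acute and 8.11 to 11.7 CPM after chronic L-DOPA. Most of these sums was Clic6, with means of 3.9 and 8.08 CPM. In the unlesioned striatum Clic6 was higher (1.22 ± 0.26, 0.0374), and without the chronic library 2 there were 3 higher, Kl (1.49 ± 0.17, 0.000422), Clic6 (0.74 ± 0.09, 0.000854) and Ttr (1.17 ± 0.31, 0.0324). Plin4, Agxt2l1 and Fkbp5 had differences of the same sign. Blood transcripts were low, with sums of 4.75 to 9.34 CPM in the acute and 1.76 to 3.36 CPM in the chronic lesioned libraries, and 3 of 4 were lower. No defining marker of these lists was at 0 in any library apart from the choroid plexus gene Kcne2, at 0 in 1 acute lesioned library. The part of these cells in the levels of the 10 genes was not tested. When the chronic unlesioned library 2 was left out, 9 of the 10 genes kept the direction of their unlesioned values, and Pdk4 moved from 0.04 to -0.02.

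The several transcripts listed for a gene mostly kept its direction. All rows tested of Plin4, Fkbp5, Tsc22d3, Cdkn1a, Pdk4, Mt1 and Mt2 had the sign of the main row between chronic and acute L-DOPA on both sides, while on the lesioned side 8 of 10 Agxt2l1 rows, 19 of 20 Sgk1 rows and 2 of 3 Zbtb16 rows did so. For the acute lesion effect the Sgk1 rows ranged from -1.29 to 0.17, with 18 of 20 on the side of the main row. Mt1 and Mt2 are paralogous neighbours at chr8:96703141-96704225 and chr8:96696518-96697467 (mm9), so reads may be shared between them. Plin4 (chr17:56240014-56245053, minus strand) overlaps Hdgfrp2 on the other strand, at 12.8 CPM, Mt2 overlaps a listed clone at 9.38 CPM and Cdkn1a (chr17:29230717-29237667) overlaps 1700023B13Rik at 1.29 CPM. The counting is not stated to use strand, so these reads cannot be told apart.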

How the data were processed

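RNA of 12 striatal samples was sequenced by the authors on a Genome Analyzer II from TruSeq libraries made with 0.5 µg of total RNA, and mapped to mm9 with Genomatix software; settings for strand and multiple hits are not given in the sources used here. The authors deposited raw counts per transcript, and their own DESeq comparisons (version not given; fold changes and p-values), which were not used, nor were 48 further per-sample columns. Rows without a symbol (296, 0.0485% of counts) were left out.

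Each gene is represented by its transcript with the highest mean count. Tests used edgeR 4.0.16 (R 4.3.3, limma 3.58.1) with filterByExpr, TMM, glmQLFit and glmQLFTest on the 6 libraries of a comparison or all 12 for the interaction, with Benjamini-Hochberg adjustment over all transcripts tested and a threshold of 0.05; "all genes" are counted from 1 transcript per gene of the same fit. Standard errors come from the fold change and its F statistic. DESeq2 1.42.0, its size factors in the edgeR fit, no filter, fitting 1 transcript per gene only, a threshold of 0.01, all 12 libraries, a replicate block and leaving out each library were tried. The fits were tested on simulated data. With 3 against 3, an exact permutation test cannot go below p = 0.10, so none was run.

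Same-numbered libraries of the 2 sides deviated together over 12794 genes (correlations of 0.458, 0.395 and 0.375 after acute and 0.515, 0.571 and 0.158 after chronic L-DOPA), so the numbers pair the sides. Replicates were not copies (chi-square per degree of freedom 5.04 to 18). Replicates are separate mice by the labels' count of mice.

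Named are all 10 genes, the 8 receptor and chaperone genes, from other lists at most 8 genes with the lowest p in a contrast, and the 10 genes most like the mean profile at 1 CPM or more. The members and lists were chosen with earlier results of these data known. A gene of the fasting and PPAR list is not reported here, and the counts of that list are left out.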

Additional observations from a re-analysis of the deposited data

Results flagged for a closer look

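The lesion effect differed between chronic and acute L-DOPA for 7 genes of the lists of 26 and 7 glucocorticoid-induced genes. The test was the interaction term of edgeR's fit over 12 libraries, which called 3.53% of all genes higher and 1.56% lower. Calls in the remaining lists are not counted here. On the log2 scale the chronic minus the acute lesion effect was -0.63 for Klf15 (adjusted p = 0.0239), -0.38 for Glul (0.0476), -0.80 for Usp2 (0.00136) and 0.79 for Nedd9 (0.0282), all from the other glucocorticoid-induced genes. Among the genes that neuronal activity also induces it was 0.47 for Per1 (0.0175), 1.17 for Dusp1 (0.00015) and -1.18 for Arl4d (0.000468). Without the chronic unlesioned library 2 the other glucocorticoid-induced genes had 0 called higher and 2 lower, against 1 and 3 with it, and the activity-induced genes had 2 and 1 in both cases.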

How the results depend on the processing

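Of the 10 genes, 5 were called higher on the lesioned side after acute L-DOPA, against 3 in a fit over all 12 libraries, 3 at an adjusted p under 0.01, 8 with the replicate block and 3 to 7 when one library was left out, with 3 without the acute lesioned library 2. After chronic L-DOPA 0 were lower, against 2 with the block. The counts between chronic and acute L-DOPA, and for the difference of the lesion effects, follow from how the genes were picked. Between chronic and acute L-DOPA in the lesioned striatum 5 were lower, against 3 to 5 without one library (3 without the acute library 2 or the chronic library 1). In the unlesioned striatum 2 were higher, against 0 at an adjusted p under 0.01 and 0 to 4 without one library (0 without the acute library 1 or 2, 4 without the chronic library 2), and 0 were lower, against 1 with DESeq2, without the filter, over all 12 libraries and with the block, and 0 to 1 without one library. Leaving out the chronic library 2 raised the calls over all transcripts too, from 3366 of 129187 to 14377 of 130656. For the difference of the lesion effects 1 was lower, against 6 with the block, 0 at an adjusted p under 0.01 and 0 to 3 without one library (3 without the acute unlesioned library 2).

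For the list of 26 other glucocorticoid-induced genes after acute L-DOPA, 5 were higher in the lesioned striatum, against 8 without the filter, 3 over all 12 libraries, 13 with the block, 3 at an adjusted p under 0.01 and 3 to 11 without one library (11 without the unlesioned library 2, 3 without the unlesioned library 1 or 3 or the lesioned library 2), and 1 was lower, against 2 with the block, 0 at an adjusted p under 0.01 and 0 to 1. After chronic L-DOPA 5 were higher, against 1 at an adjusted p under 0.01 and 2 to 5 without one library (2 without the lesioned library 1 or 3, 3 without the unlesioned library 1 or 3), and 0 lower, against 1 with DESeq2, without the filter and with a single transcript per gene, 4 over all 12 libraries, 10 with the block and 0 to 4 (4 without the lesioned library 2). Between chronic and acute L-DOPA in the lesioned striatum 6 were higher, against 3 at an adjusted p under 0.01 and 3 to 7 without one library. On the unlesioned side 0 were higher, against 2 without the filter and 0 to 3 without one library, and 0 lower, against 1 without the filter, over all 12 libraries and with the block, and 0 to 1. For the difference of the lesion effects 1 was higher, against 2 with DESeq2 and with the block, 0 at an adjusted p under 0.01 and 0 to 2, and 3 lower, against 10 with the block, 1 at an adjusted p under 0.01 and 1 to 6 (6 without the chronic lesioned library 2). Beyond the genes named in the report the block changed no call of the 10 genes on the lesion effect, and between chronic and acute L-DOPA the numbers pair no libraries.

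Signs turned for these lesion effects, none of them called, when one library was left out. After chronic L-DOPA the log2 lesion effect of Plin4 ranged from -0.70 to 0.54 (0.54 without the unlesioned library 1 and 0.14 without the lesioned library 2), that of Fkbp5 from -0.04 to 0.30 (-0.04 without the lesioned library 1, -0.01 without the unlesioned library 2), that of Tsc22d3 from -0.16 to 0.12 (0.12 without the unlesioned library 2, 0.07 and 0.02 without the lesioned libraries 1 and 3) and that of Zbtb16 from -0.26 to 0.02 (0.02 without the unlesioned library 1). That of Mt1 ranged from -0.04 to 0.15 (-0.04 and -0.00 without the unlesioned libraries 2 and 3, -0.01 without the lesioned library 1) and that of Mt2 from -0.01 to 0.09 (-0.00 and -0.01 without the unlesioned libraries 2 and 3). The chronic minus acute lesion effect of Plin4 ranged from -1.05 to 0.19, the latter without the chronic unlesioned library 1. The cause was not tested.

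The limits are those of the design: 3 libraries per group, no group without L-DOPA, and no measure of hormone or time of day analysed here. Reads carry no molecular identifiers, so counts are of reads and not of molecules.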
